A study of Mus musculus with 6 samples.

Results

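Nodal and BMP pathway genes were examined as 9 members: the ligand genes Nodal and Bmp4, the co-receptor gene Tdgf1, the inhibitor genes Lefty1, Lefty2 and Smad7, and the target genes Id1, Id2 and Id3. They were the rows whose Entrez ID maps to these symbols, 9 of the 24467 genes of the count table, and all 9 passed the filter on low counts that left 14771 genes. RNA was sequenced from mouse embryonic stem (ES) cells in 6 libraries, 2 from each of 3 clones. The control clone is titled Hp1α/β F/F, with the genotype label WT, and DKO clones 1 and 2 are double knockouts of Cbx5, the gene of HP1α, and Cbx1, the gene of HP1β. Both proteins are readers of histone H3 methylation found at silent chromatin. Cells of all 3 clones received no other treatment and grew in DMEM with knockout serum replacement, LIF, the GSK3 inhibitor CHIR99021 (3 µM) and the MEK inhibitor PD184352 (0.8 µM). Each group is 1 clone, so genotype and clone cannot be told apart. Separate cultures behind the libraries of a clone are not stated.

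Nodal is a secreted TGF-beta family ligand that signals through activin receptors, with the co-receptor Cripto (the product of Tdgf1), to SMAD2 and SMAD3. These induce Nodal itself and its secreted inhibitors, the Lefty proteins, in a feedback loop. BMP ligands signal through other receptors to SMAD1, SMAD5 and SMAD9, which induce the Id genes, and the Id proteins bind E proteins and keep them from DNA. In ES cells BMP and LIF together are known to sustain self-renewal, and Nodal signalling is known to be active in part through autocrine ligand.

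Lefty1 and Lefty2 are neighbours on chromosome 1 and near copies of each other, which bears on every count of them. Their coding sequences in the GENCODE annotation of GRCm38, 1104 bases each without the stop codon, were identical at 92.1% of 1103 aligned bases, with a longest identical run of 140 bases. Of the 50-base words of the annotated Lefty1 transcripts 17.9% also occurred in Lefty2, and 11.95% of those of Lefty2 occurred in Lefty1. Among the other members, Tdgf1 shared 8.86% of its words with the pseudogene Tdgf1-ps1, and no other member shared more than 0.356% with another gene. How reads that match several genes were counted is not given in the sources used here, so the split of reads between Lefty1 and Lefty2 is uncertain. The stretch of 150 coding bases in which the copies differ most (coding bases 125 to 274 of each) is shown to make plain how alike they are, with the 25 bases that differ in capitals and the 125 shared ones in lower case.
Lefty1: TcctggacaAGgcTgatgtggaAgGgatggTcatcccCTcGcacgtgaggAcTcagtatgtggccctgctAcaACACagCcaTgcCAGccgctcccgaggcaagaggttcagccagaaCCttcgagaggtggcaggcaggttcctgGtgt
Lefty2: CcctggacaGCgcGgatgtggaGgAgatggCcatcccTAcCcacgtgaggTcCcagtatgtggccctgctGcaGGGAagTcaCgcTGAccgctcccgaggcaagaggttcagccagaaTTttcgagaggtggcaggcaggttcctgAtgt

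RefSeq promoter windows (GRCm38.p6) were at hand for 5 members, Nodal, Tdgf1, Bmp4, Id2 and Id3, and the 250 bases before the start site were searched on both strands. The letters were CAGAC, which SMAD3 and SMAD4 bind, GGCGCC, a GC-rich SMAD site, and TGTGGAT, a core of the site of FOXH1, the partner of SMAD2. CAGAC occurred in 42.2%, GGCGCC in 9.59% and TGTGGAT in 2.78% of 32851 windows of the same length. The 3 windows that held a match are printed 5′ to 3′ on the strand of the gene, with the matches in capitals. CAGAC occurred at 2 places in Id3 and 1 in Tdgf1, and GGCGCC at 1 place in Id2. The windows of Nodal and Bmp4 held none of these letters.
Tdgf1, chr9:110946159-110946408, minus strand: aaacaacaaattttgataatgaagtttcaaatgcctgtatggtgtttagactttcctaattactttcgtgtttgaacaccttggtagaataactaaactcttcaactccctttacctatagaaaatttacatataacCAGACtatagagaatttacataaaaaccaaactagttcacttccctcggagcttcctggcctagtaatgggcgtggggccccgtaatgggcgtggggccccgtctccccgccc
Id2, chr12:25096093-25096342, minus strand: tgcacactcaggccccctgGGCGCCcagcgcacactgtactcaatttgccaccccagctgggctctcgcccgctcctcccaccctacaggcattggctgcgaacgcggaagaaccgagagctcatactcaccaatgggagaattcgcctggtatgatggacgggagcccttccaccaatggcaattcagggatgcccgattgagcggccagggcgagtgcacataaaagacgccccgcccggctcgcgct
Id3, chr4:136143572-136143821, plus strand: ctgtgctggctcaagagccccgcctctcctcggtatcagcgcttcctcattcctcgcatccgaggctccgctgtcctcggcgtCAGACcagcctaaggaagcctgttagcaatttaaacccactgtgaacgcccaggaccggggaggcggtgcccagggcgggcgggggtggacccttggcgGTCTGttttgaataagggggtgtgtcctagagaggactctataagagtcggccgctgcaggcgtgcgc

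The targeted genes were lower in every DKO library. Cbx5 was at 24.6% of the control mean in clone 1 and 24.1% in clone 2, and Cbx1 at 20.7% and 19.9%. Which exons were deleted is not stated. Libraries held 24628872 to 34641560 counted reads, fewer in the DKO than in the control. Across all tested genes 8.69% were called in DKO against control, meaning an adjusted p at or under 0.05 in the edgeR quasi-likelihood test over all genes. Of the 9 members 4 were called, 3 lower (Lefty1, Lefty2 and Tdgf1) and 1 higher (Bmp4), where 3.62% of all genes were called lower and 5.06% higher. With each chromosome centred on its median change, 444 genes were called lower and 335 higher, against 535 and 748, and of the members Lefty1, Lefty2 and Bmp4 were called. The members were proposed with earlier results of these data known, so this count describes them and is no test.

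**Figure D1:**
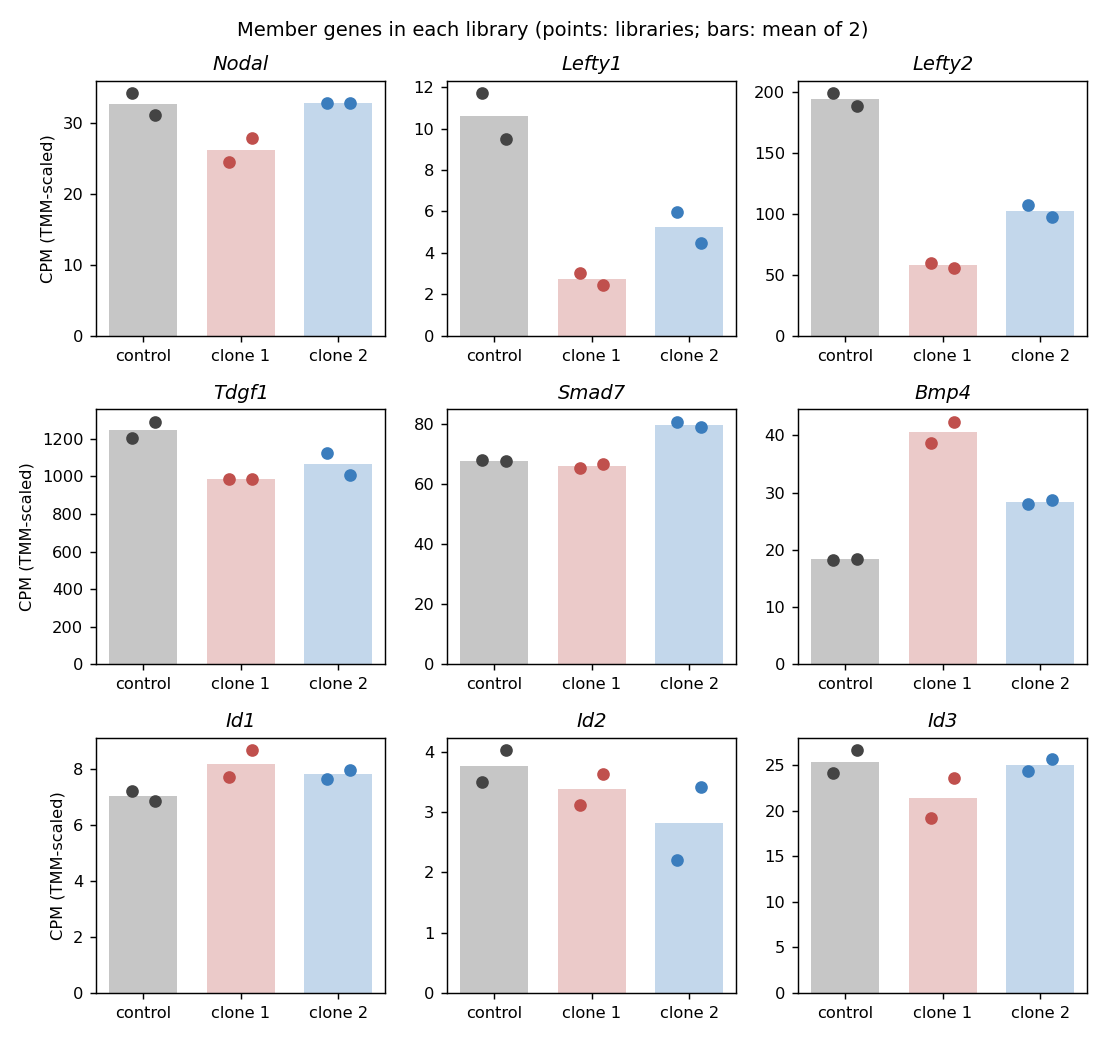
CPM (counts scaled to library size by TMM) of each of the 9 members on linear axes from 0, for control, DKO clone 1 and DKO clone 2; points are libraries and bars are means of 2. Lefty1 and Lefty2 are lowest in clone 1, intermediate in clone 2 and highest in the control, and Bmp4 runs in the opposite order.

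The ligand gene Nodal (Entrez 18119, GRCm38 chromosome 10, 61417972 to 61425338) was close to the control in clone 2 and lower in clone 1. It had 34.2 and 31.1 CPM in the control libraries, 24.4 and 27.9 in clone 1, and 32.9 in each library of clone 2. CPM are counts scaled to the library size, which was adjusted by TMM. Both clone 1 libraries lay below both control libraries, while those of clone 2 lay between them. In clone 1 Nodal fell, with a log2 change of -0.32 (SE 0.0979, edgeR adjusted p = 0.0422), but the adjusted p ranged from 0.0216 to 0.284 over 14 alternatives. It was 0.214 without control replicate 1, 0.284 without clone 1 replicate 1, and over the threshold also without clone 2 replicate 1 (0.0644) or replicate 2 (0.0652) and with chromosomes centred (0.0770). With a replicate block the edgeR adjusted p in clone 1 was 0.0522. In clone 2 the log2 change was 0.0090 (95% confidence interval, CI, -0.20 to 0.22), and in both clones together -0.15 (CI -0.42 to 0.13, adjusted p = 0.532). The difference between the clones was 0.33 (CI 0.12 to 0.54, adjusted p = 0.0691).

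The co-receptor gene Tdgf1 (Entrez 21667, chromosome 9, 110939608 to 110946158) had the highest level per length of the 9 and was modestly lower in the DKO libraries. Control libraries had 1204 and 1290.4 CPM, clone 1 had 984 and 986, and clone 2 had 1123 and 1007. All 4 DKO libraries lay below both control libraries, and clone 2 replicate 1 lay nearest to the control. The DKO mean was 82.2% of the control, a log2 change of -0.28 (SE 0.0744, edgeR adjusted p = 0.0415). Over 16 alternatives the adjusted p ranged from 0.0115 to 0.296. It was over the threshold without control replicate 1 (0.136) or 2 (0.296), without clone 1 replicate 1 (0.0655) or 2 (0.0817), and without clone 2 replicate 2 (0.0693). Library size scaling (0.0548), a replicate block (0.0735), centred chromosomes (0.0725) and a fit of clone 2 and the control alone (0.0719) also ended it. Clone 1 alone was called in the fit with 3 groups (log2 change -0.34, adjusted p = 0.0096, and 0.0679 without control replicate 2) and clone 2 was not (-0.23, adjusted p = 0.0671). In clone 2 DESeq2 (0.0293), limma-voom (0.0360) and edgeR without a filter (0.0149) did call it. The clones differed by 0.11 (CI -0.06 to 0.28), with no call.

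The inhibitor genes Lefty1 and Lefty2 fell the furthest of the members, and further in clone 1 than in clone 2. Lefty2 (Entrez 320202, chromosome 1, 180893108 to 180899107) had 199 and 188 CPM in the control, 59.5 and 55.9 in clone 1, and 108 and 97.2 in clone 2. Lefty1 (Entrez 13590, 180935022 to 180938401) had 11.7 and 9.48 CPM in the control, 3.05 and 2.44 in clone 1, and 5.98 and 4.50 in clone 2. For each gene the 3 clones did not overlap. Since the samples are bulk RNA, fewer cells that express a gene and less RNA per cell cannot be told apart.

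In clone 1 Lefty2 was 3.35-fold lower than the control (log2 change -1.75, SE 0.0766, edgeR adjusted p = 2.2e-08) and in clone 2 it was 1.89-fold lower (-0.92, SE 0.0745, adjusted p = 7.2e-06). Lefty1 was 3.85-fold lower in clone 1 (-1.95, SE 0.198, adjusted p = 4.1e-05) and 2.03-fold lower in clone 2 (-1.02, SE 0.185, adjusted p = 0.0021). These 4 calls were kept under all 14 alternatives run for the clone contrasts, other tools and each left-out library included. The highest adjusted p was 0.0332, for Lefty1 in clone 2. In both clones together the log2 changes were -1.28 for Lefty2 and -1.41 for Lefty1, with adjusted p = 0.0058 and 0.0112. Those calls ended without control replicate 1 (0.0879 and 0.155) and without control replicate 2 (0.0662 and 0.0745), in a fit where the spread between the clones counts as error. The test of clone 2 against clone 1 gave 0.83 for Lefty2 (CI 0.66 to 0.99, adjusted p = 7.3e-05) and 0.93 for Lefty1 (CI 0.47 to 1.38, adjusted p = 0.0202). For Lefty1 that difference was not called without clone 1 replicate 2 (0.109) or clone 2 replicate 1 (0.160), nor by limma-voom (0.0517).

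Reads given to Lefty1 were a small and similar share of the reads of both copies in every library. The share was 5.56% and 4.79% in the control, 4.87% and 4.19% in clone 1, and 5.27% and 4.42% in clone 2. The exact 95% binomial intervals ran from 5.05 to 6.12% for control replicate 1 and from 3.27 to 5.28% for clone 1 replicate 2, the libraries at the extremes, and cover counting error only. The 2 genes thus moved by a similar factor in these counts. With 17.9% of the Lefty1 words shared with Lefty2, their changes may not be separate measurements. The 59 other tested genes within 5 Mb of Lefty2 had a median log2 change of -0.0072 in clone 1 and -0.02 in clone 2.

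Smad7 (Entrez 17131, chromosome 18), which codes for an inhibitory SMAD that blocks receptors of both branches and is itself induced by them, did not follow the Lefty genes. It had 68.04 and 67.5 CPM in the control, 65.3 and 66.7 in clone 1, and 80.7 and 78.8 in clone 2. Clone 2 lay above the other 4 libraries. Its change was 0.23 in clone 2 (SE 0.0709, edgeR adjusted p = 0.0409) and -0.04 in clone 1 (CI -0.19 to 0.11), and the clones differed by 0.27 (CI 0.12 to 0.43, adjusted p = 0.0378). The call in clone 2 ended without any 1 of the 6 libraries (0.0541 to 0.203). It also ended with each chromosome centred on its median (log2 change 0.17, adjusted p = 0.148), without a filter (0.0581) and with a replicate block (0.0583). The difference between clones ended without any 1 of the 4 DKO libraries (0.118 to 0.207). With a replicate block that difference was not called either (0.0554). In both clones together the log2 change was 0.10 (CI -0.12 to 0.32).

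**Figure D2:**
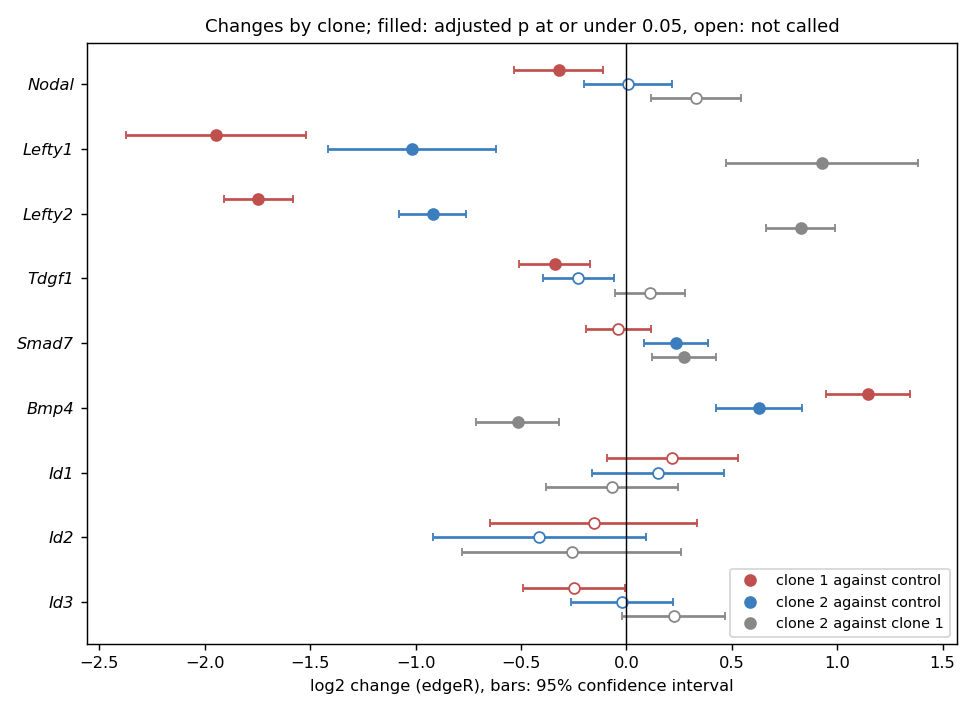
Log2 change of the 9 members (horizontal axis) for clone 1 against control, clone 2 against control and clone 2 against clone 1, with 95% confidence intervals; filled points have an edgeR adjusted p at or under 0.05. Lefty1 and Lefty2 lie below 0 and Bmp4 above 0 in both clones, while the intervals of Id1 and Id2 reach across 0 in each contrast.

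Bmp4 (Entrez 12159, chromosome 14, 46383525 to 46390669), the BMP ligand gene with the most reads here, rose in both clones. It had 18.2 and 18.4 CPM in the control, 38.7 and 42.4 in clone 1, and 27.98 and 28.8 in clone 2. No DKO library overlapped the control, and clone 1 lay above clone 2. Bmp4 was 2.21-fold higher than the control in clone 1 (log2 change 1.15, SE 0.0930, edgeR adjusted p = 6.3e-06) and 1.55-fold higher in clone 2 (0.63, SE 0.0940, adjusted p = 5.2e-04). Both calls were kept under all 14 alternatives, with a highest adjusted p of 0.0076. In both clones together the log2 change was 0.91 (adjusted p = 0.0082), a call that ended when a control library was left out (0.114 for replicate 1, 0.101 for replicate 2). The clones differed by -0.52 (CI -0.71 to -0.32, adjusted p = 0.0057), which was not called without clone 2 replicate 1 (0.0631).

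The genes around Bmp4 did not share its rise. The 44 other tested genes within 5 Mb had a median log2 change of -0.10 in clone 1 and -0.18 in clone 2. Of these 6 were called lower and 3 higher in clone 1, and 14 lower and 4 higher in clone 2, where 6.47% and 7.08% of all genes were called lower in the respective clone. With each chromosome centred the log2 change of Bmp4 was 1.19 in clone 1 and 0.76 in clone 2. Gm15217 lies over part of Bmp4 on the other strand. It had 7 to 8 reads per control library, 14 to 15 in clone 1 and 7 to 10 in clone 2, and log2 changes of 1.19 and 0.54, in the direction of Bmp4. The kit marks strand but the strand that was counted is not given, so reads of the 2 genes may not be separate. Bmp4 had 595 to 1180 reads per library, and the part of Gm15217 in that count was not tested.

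**Figure D3:**
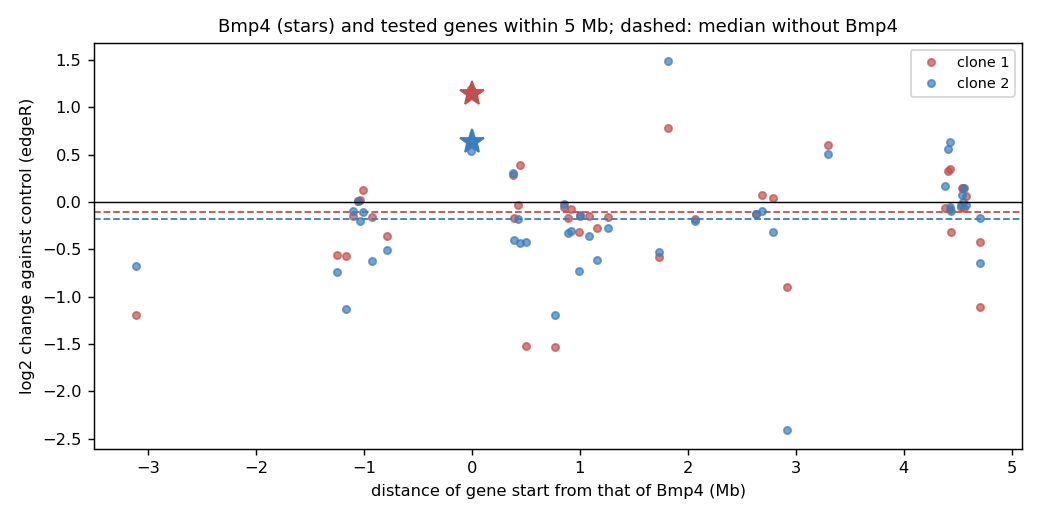
Log2 change against control of Bmp4 (stars) and of the tested genes within 5 Mb of it, by distance between annotated start coordinates in Mb, for clone 1 and clone 2; dashed lines are the medians without Bmp4. Bmp4 lies above both medians, -0.10 in clone 1 and -0.18 in clone 2.

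Id1, Id2 and Id3, direct BMP targets that code for inhibitors of E proteins, had no call in any of the 4 comparisons, while their relative Id4, which is no member, was called higher in clone 2. In the edgeR test at an unadjusted p under 0.05, only Id3 in clone 1 was lower, and DESeq2 and limma-voom also called none of the 3. Id1 (Entrez 15901, chromosome 2, 152736251 to 152737410) had 7.19 and 6.85 CPM in the control, 7.68 and 8.66 in clone 1, and 7.63 and 7.95 in clone 2. All 4 DKO libraries of Id1 lay above both control libraries, by little, as did those of 16.9% of all tested genes. The fold change of both clones together was 1.14 (CI 0.928 to 1.39, adjusted p = 0.445).

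Id2 (Entrez 15902, chromosome 12, 25093799 to 25096092) was the scarcest of the 9 at 3.49 and 4.03 CPM in the control. It had 3.12 and 3.63 in clone 1 and 2.21 and 3.41 in clone 2, with overlapping groups and a fold change of 0.825 (CI 0.589 to 1.16, adjusted p = 0.497). Id3 (Entrez 15903, chromosome 4, 136143822 to 136145392), the most abundant Id gene here per length, had 24.1 and 26.6 CPM in the control. It had 19.2 and 23.5 in clone 1 and 24.3 and 25.6 in clone 2. Clone 1 lay below the control and clone 2 within it, and the fold change was 0.913 (CI 0.760 to 1.10, adjusted p = 0.563). The intervals ended at 1.39-fold for Id1, 1.16-fold for Id2 and 1.10-fold for Id3. That of the 1.88-fold rise of Bmp4 ran from 1.45 to 2.44-fold, and that of Id4 from 1.15 to 2.15-fold. The difference between the genes was not tested.

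Id4, the other Id gene of the BMP target list, was added after its values were seen. It had 4.86 and 5.73 CPM in the control, 7.47 and 6.32 in clone 1, and 9.19 and 10.3 in clone 2. All DKO libraries lay above the control, with clone 2 the highest, whereas Bmp4 was highest in clone 1. In clone 2 Id4 rose, with a log2 change of 0.88 (SE 0.160, edgeR adjusted p = 0.0021), a call kept under all 14 alternatives. In clone 1 the log2 change was 0.38 (CI 0.03 to 0.73, adjusted p = 0.138). Both clones together gave 0.65 (CI 0.20 to 1.10, adjusted p = 0.0792), with a range of 0.0023 to 0.404 over 16 alternatives. DESeq2 (0.0256), edgeR without a filter (0.0487) and the fit without clone 1 replicate 2 (0.0318) called it there.

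Groups did not overlap between DKO and control for 5 of the 9 members (Lefty1, Lefty2 and Tdgf1 lower, Bmp4 and Id1 higher), where 33.8% of all tested genes did not overlap. Against control, 5 of 9 were called in clone 1 (4 lower and 1 higher) and 4 of 9 in clone 2 (2 lower and 2 higher). In clone 1, 15.3% of all genes were called, 6.47% lower and 8.79% higher, and in clone 2, 15.0% were, 7.08% lower and 7.89% higher. These comparisons share the control libraries. Between the clones 4 of 9 were called, Lefty1, Lefty2 and Smad7 higher in clone 2 and Bmp4 lower. Of all genes 6.30% were called between the clones, 2.53% higher and 3.77% lower in clone 2. For Lefty1, Lefty2 and Bmp4 the clone 2 level lay between those of the control and clone 1.

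Levels of different genes were compared per length, as RPKM (CPM per kilobase of the deposited gene width). In the control Tdgf1 stood first at 476 ± 23.4 RPKM (SD, n = 2), and Lefty2 followed at 74.1 ± 2.76. Id3 (15.7 ± 1.10), Nodal (15.6 ± 1.04) and Smad7 (15.0 ± 0.0791) came next and did not differ beyond their spread. Bmp4 (8.15 ± 0.0651), Id1 (7.51 ± 0.261), Lefty1 (6.02 ± 0.895) and Id2 (1.91 ± 0.192) followed, with libraries that did not overlap between neighbours. In the DKO libraries (n = 4) Tdgf1 was at 391 ± 25.3 RPKM and Lefty2 at 30.7 ± 10.02. Smad7 (16.1 ± 1.77), Bmp4 (15.3 ± 3.20), Id3 (14.3 ± 1.71) and Nodal (14.1 ± 1.97) had overlapping levels. The levels of Bmp4 lay below those of Nodal in the control. In clone 1 Bmp4 (17.2 and 18.9 RPKM) lay above Nodal (11.7 and 13.3), and in clone 2 Bmp4 (12.4 and 12.8) lay below Nodal (15.7 in each library). In the DKO libraries together Lefty1 fell to 2.27 ± 0.899 RPKM.

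The other genes of both pathways were taken from 13 lists by role, 85 genes with the members, of which 63 were tested. In DKO against control 5.06% of all tested genes were called higher and 3.62% lower. Of the 54 tested genes that are no members, 4 rose, 4 fell and 46 were not called. Their median log2 change was -0.09, beside 0.00038 for all tested genes. Those described here are ligands, receptors, a SMAD brake and Id partners.

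Among ligands 1 of 4 tested rose, 1 fell and 2 were not called, Nodal among them. Gdf3, a Nodal-related ligand gene on chromosome 6, went from 57.1 to 78.3 CPM in clone 1 and 84.6 in clone 2 (log2 change 0.51, edgeR adjusted p = 0.0038). With chromosomes centred, its change was 0.05 (adjusted p = 0.778). The 709 tested genes of chromosome 6 had a median log2 change of 0.48, close to that of Gdf3, and 348 of them were called higher. Without control replicate 2 it was not called (0.0748). Inhbb, a subunit of activin, went from 5.04 to 2.89 and 3.49 CPM (-0.66, adjusted p = 0.0476). That call ended without any 1 of the 6 libraries. It also ended with library size scaling (0.0512), a replicate block (0.0868), chromosomes centred (0.0760) and clone 2 and the control alone (0.0758).

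Of the 4 tested activin receptor and co-receptor genes, 1 rose and 1, Tdgf1, fell. Acvr1b, a type I receptor of Nodal, went from 19.4 to 26.9 and 24.7 CPM (log2 change 0.41, edgeR adjusted p = 0.0394). Acvr1b was not called with a replicate block (0.0722) or with clone 2 and the control alone (0.0550). It was not called without either control library (0.278 and 0.170), without either clone 1 library (0.0749 and 0.0759) or without clone 2 replicate 1 (0.0854). Of the 3 tested antagonists other than the Lefty genes none was called by edgeR, DESeq2 or limma-voom, and 1 was lower at an unadjusted p under 0.05 in edgeR. The activin-binding Fst was at 18.9 CPM in the control and at 17.3 and 16.7 in the clones, and Cer1 had no read in any library.

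The SMADs of the Nodal branch and the proteases that cut the Nodal precursor had no call among 4 and 3 tested genes. In DKO against control none had an unadjusted p under 0.05 in edgeR, DESeq2 or limma-voom, and in clone 1 the protease gene Furin did in edgeR (log2 change -0.29, adjusted p = 0.164). Smad2 was at 70.9 CPM in the control and 71.4 and 69.4 in the clones, and the protease gene Pcsk6 at 85.5, 78.7 and 78.7. Of 10 SMAD brakes 1 fell in DKO against control, while DESeq2 called 2 lower and limma-voom 1, and 4 were lower at an unadjusted p under 0.05 in edgeR. In clone 2 against control 3 fell, Skil, Ski and Pmepa1, and 1, Smad7, rose. Of all tested genes 7.08% were called lower and 7.89% higher in that comparison. Ski (log2 change -0.35, edgeR adjusted p = 0.0082) and Pmepa1 (-0.45, 0.0398), chosen after their values were seen, had adjusted p of up to 0.0813 and 0.186 over 14 alternatives. Ski was not called without control replicate 2 or either clone 2 library, nor Pmepa1 without either library of the control or of clone 2 or with chromosomes centred (0.0502). Skil, a corepressor that SMAD2 and SMAD3 induce, went from 111 to 83.2 and 86.2 CPM (log2 change -0.38, edgeR adjusted p = 0.0067). Its adjusted p was 0.0914 and 0.0766 without control replicate 1 and 2. Skil lies on chromosome 3, where 701 tested genes had a median log2 change of 0.18, and with chromosomes centred its change was -0.55.

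Of the 6 tested Nodal targets of the primitive streak and mesendoderm 1 fell and 5 were not called in DKO against control. Their median log2 change was -0.87. At an unadjusted p under 0.05 in edgeR 4 were lower and 1, Eomes, was higher. Eomes, a T-box gene of the primitive streak that Nodal signalling induces, was added after its values were seen. It had 7.79, 10.8 and 18.8 CPM in control, clone 1 and clone 2, and missed the threshold in both clones together (0.93, adjusted p = 0.0505). DESeq2 (0.0014), edgeR without a filter (0.0112) and edgeR without clone 1 replicate 1 (0.0262) or 2 (0.0212) called it there. So did fits of clone 1 (0.0484) or clone 2 (5.5e-05) alone with the control. Of 16 alternatives 10 did not call it. It was called in each clone against control, with log2 changes of 0.48 in clone 1 and 1.27 in clone 2, and was higher in clone 2 than in clone 1 (0.79, adjusted p = 0.0040). The call in clone 1 ended without control replicate 1 (0.202) or either clone 1 library (0.132 and 0.0620), and the difference between clones ended without clone 2 replicate 1 (0.0530).

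**Figure D4:**
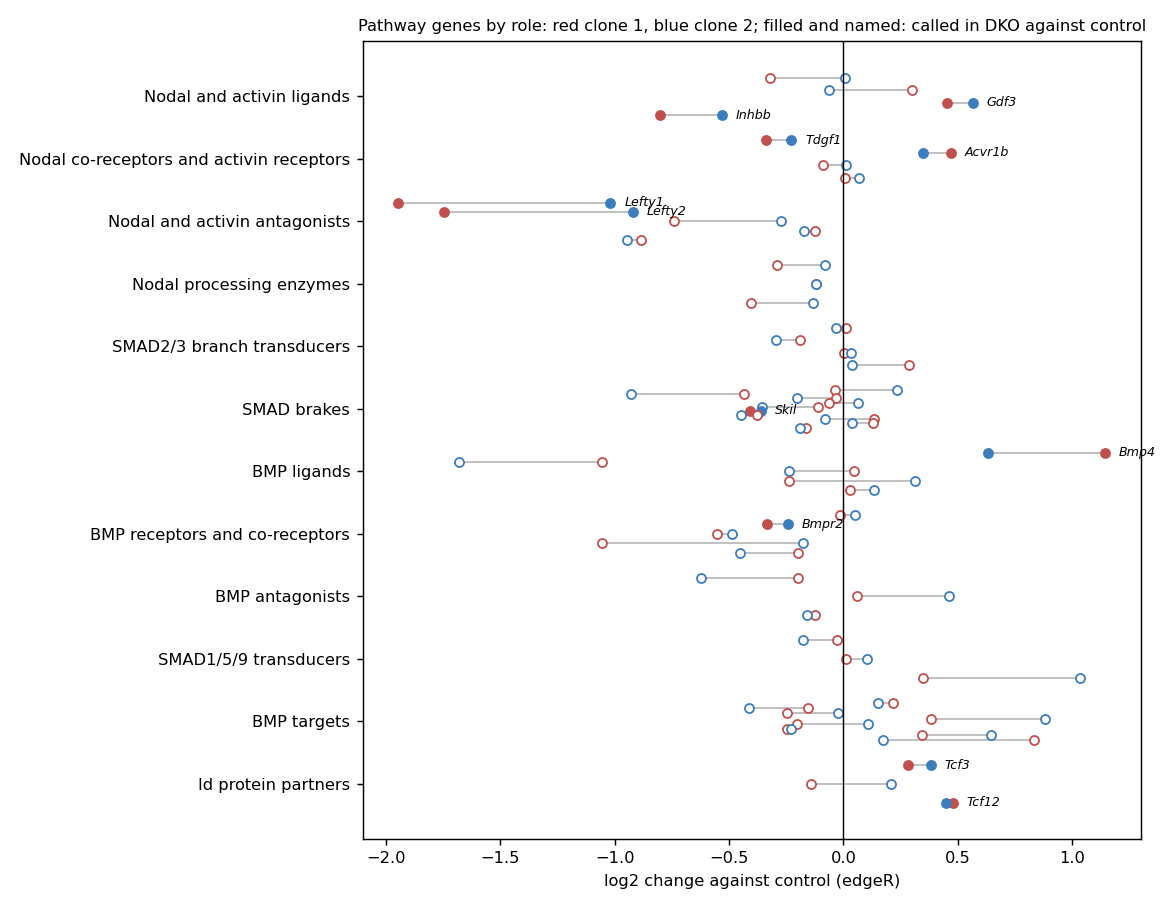
Log2 change against control (horizontal axis) of tested pathway genes by role, without the primitive streak targets; red points are clone 1, blue points clone 2, joined by a line per gene, and filled, named points were called in DKO against control. The Lefty genes lie furthest to the left and Bmp4 furthest to the right among the named genes.

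On the BMP side 5 of the 8 ligand genes were tested, and only Bmp4 was called. Bmp7 was next in level at 4.59 CPM in the control and 4.74 and 3.88 in the clones. Among 5 tested receptor genes 1 fell: Bmpr2, the type II receptor, went from 50.7 to 40.2 and 42.8 CPM (log2 change -0.29, edgeR adjusted p = 0.0445). That call ended without any 1 of the 6 libraries. It also ended with library size scaling (0.0517), a replicate block (0.0885), chromosomes centred (0.0864) and clone 2 and the control alone (0.0676). The 3 tested BMP antagonist genes and the 3 transducers Smad1, Smad5 and Smad9 had no call, and in DKO against control no unadjusted p under 0.05 in edgeR, DESeq2 or limma-voom. Twsg1, a BMP-binding protein gene, was at 45.6 CPM in the control and 41.8 and 40.8 in the clones, and Smad5 at 31.6, 31.9 and 33.99. The noggin gene Nog did not pass the filter on low counts.

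Of 8 tested BMP targets none was called in DKO against control by edgeR or limma-voom, while DESeq2 called 1, Id4, higher. At an unadjusted p under 0.05 in edgeR 1 was higher (Id4) and 1 lower (Dusp9). In clone 2 against control edgeR called 1 of the 8 higher, Id4. Dusp9, a phosphatase gene that BMP induces in ES cells, was at 49.7 CPM in the control and at 41.9 and 42.3 in the clones (log2 change -0.24, edgeR adjusted p = 0.100). Among the 3 E protein genes, whose products the Id proteins bind, 2 rose. Tcf12 went from 63.5 to 88.4 and 86.7 CPM (0.46, adjusted p = 0.0031, and 0.0673 without control replicate 1). Tcf3 went from 63.1 to 76.7 and 82.3 CPM (0.33, adjusted p = 0.0483). It was not called with a replicate block (0.0918) or with clone 1 and the control alone (0.0741). The call on Tcf3 ended without control replicate 1 (0.373) or 2 (0.0920), without clone 1 replicate 1 (0.0846), and without clone 2 replicate 1 (0.103) or 2 (0.0768).

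ES cell markers were high in all libraries, with a summed level of 4001 to 4187 CPM over 10 genes in the control and 4264 to 4476 CPM in the DKO libraries. Of the 10, 1 was called higher and none lower, and Tfcp2l1 was the most abundant. The 1 called, Nanog (log2 change 0.33), lies on chromosome 6, whose tested genes had a median log2 change of 0.48. Pou5f1 had 641 CPM in the control and 660 and 649 in the clones. Of 6 tested markers of feeder fibroblasts 2 fell and 4 were not called in DKO against control. Those 2 were Acta2 (log2 change -1.90, edgeR adjusted p = 0.0063) and Twist1 (-0.99, 0.0216). For DKO against control limma-voom called 3 lower and DESeq2 2. In each clone against control 3 of the 6 fell in edgeR. The sum over the 15 genes of that list was 32.2 to 38.5 CPM in the control, 21.8 to 23.7 in clone 1 and 14.5 to 16.8 in clone 2. It was lower in both clones than in the control, and lowest in clone 2. Of that list Tagln was the most abundant (21.1, 14.5 and 7.51 CPM) and was not called (edgeR adjusted p = 0.0559). Col3a1, Dcn and Lum averaged at most 0.144 CPM in any group and Twist2 had no read. Primitive streak markers, 10 genes, summed to 25.8 to 29.5 CPM in the control, 31.1 to 31.7 in clone 1 and 43.3 to 43.6 in clone 2, with Cdx1 the most abundant, and 0 of 7 tested were called in DKO against control by edgeR. In the fit with 3 groups 1 was called higher in clone 1 and 2 in clone 2. For DKO against control, at an unadjusted p under 0.05 in edgeR, 2 were higher and 2 lower. DESeq2 called 1 higher and limma-voom none. Primitive endoderm markers, led by Lama1, summed to 59.5 to 59.6 CPM in the control and 47.8 to 56.2 in the DKO libraries, and 1 of 9 tested fell. Trophectoderm markers, led by Tfap2c, summed to 42.9 to 50.7 CPM in the control and 51.0 to 55.6 in the DKO libraries, with 1 of 8 tested higher and 1 lower. Neuroectoderm markers, led by Tubb3, summed to 84.3 to 88.6 CPM in the control, 84.6 to 86.6 in clone 1 and 68.1 to 70.1 in clone 2, and 1 of 5 tested fell. Epiblast markers, led by Dnmt3b, summed to 458 to 486 CPM in the control and 455 to 506 in the DKO libraries, and 1 of 7 tested rose. The part of these cell markers in the changes of the members was not tested.

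Genes with the most similar pattern over the 6 libraries were sought for 4 members by Pearson r of log2 CPM, among 11577 genes at a mean of 2 CPM or more. The points share libraries and clones, and with 6 of them many genes reach a high r, so these are descriptions. For Lefty2 they were Usp25 (r = 0.997), N4bp2 (0.995) and Pla2g1b (0.995), and 158 genes reached 0.95. Pla2g1b, a secreted phospholipase gene, went from 8.71 CPM to 1.53 in clone 1 and 3.22 in clone 2. For Bmp4 they were Pemt (0.998), Arhgap29 (0.997) and Exoc4 (0.996), with 204 genes at 0.95 or more. Arhgap29 lies on chromosome 3 and Exoc4 on chromosome 6, whose tested genes had median log2 changes of 0.28 and 0.44 in clone 1. In clone 2 these medians were 0.08 and 0.51. For Nodal they were Mrpl40 (0.992), Rap1gap2 (0.990) and Bod1l (0.984), with 45 such genes, and for Id1 they were Mecom (0.998), Alg14 (0.993) and Rap1a (0.989), with 32. The genes nearest to Id1 all lie on chromosome 3, whose tested genes had a median log2 change of 0.28 in clone 1 and 0.08 in clone 2. No member was among the 3 nearest genes of another.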

How the data were processed

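Members and lists were chosen with earlier results of these data known. The authors deposited raw read counts per Entrez gene and a gene width, in bases; per the submitters' processing notes, reads were aligned with STAR 2.5.0a to mm10 (GRCm38). The libraries used the stranded ScriptSeq v2 kit, per the labels' protocols; the sources used here name no counting tool and no counted strand. Symbols and positions came from the RefSeq table of GRCm38.p6, which matched 24437 of 24467 IDs. Counts were analysed with edgeR 4.0.16 in R 4.3.3: filterByExpr by group, TMM factors of 0.992 to 1.01, and two-sided quasi-likelihood F tests with Benjamini-Hochberg adjustment over 14771 genes at a threshold of 0.05. DKO against control used genotype as the only term (4 residual degrees of freedom), and the clone contrasts a fit with 3 groups (3 residual degrees of freedom). p-values measure the spread between these libraries, which may be technical. Alternatives were RLE and library size scaling, other filters, DESeq2 1.42.0, limma-voom (limma 3.58.1), a replicate block, centred chromosomes, each clone alone, and leaving out each library. Chi-square per gene between the replicates of a clone was 11.5 to 41.6, where 1 is expected of a split library. The fit of DKO against control was tested on simulated data that, unlike these, held no difference between the DKO clones. Beside the members, the text names Cbx5 and Cbx1, and up to 3 called genes or else the most abundant gene per pathway list. It also names the most abundant of marker lists, and 3 genes of similar pattern for 4 members. Pou5f1, Nanog, Eomes, Id4, Ski, Pmepa1, Furin, Acta2, Twist1 and genes named for having few or no reads were picked with their values in view. Some pathway genes are not reported here.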

Additional observations from a re-analysis of the deposited data

Results flagged for a closer look

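Effects against the shared control differed between the clones, by the test of clone 2 against clone 1, for 4 members. The difference was 0.93 on the log2 scale for Lefty1 and 0.83 for Lefty2, whose fall was smaller in clone 2. It was 0.27 for Smad7, which was higher in clone 2 alone, and -0.52 for Bmp4, whose rise was smaller in clone 2. Only the difference of Lefty2 was called under all 14 alternatives. That of Lefty1 was not called in 3 of them, that of Smad7 in 5 and that of Bmp4 in 1.

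For Tdgf1, 1 of the 4 DKO libraries, clone 2 replicate 1 at 1123 CPM, stood apart from the others at 984 to 1007 CPM. The gap was 0.836 of the whole range of the 4, just past the limit of Dixon's test at the 95% level. Chance passes that limit in about 1 of 20 groups of 4 drawn from 1 population. These 4 are 2 libraries from each of 2 clones, so that rate need not hold for them.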

How the results depend on the processing

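In each clone against control the calls of Lefty1, Lefty2 and Bmp4 held under all 14 alternatives. In both clones together, without either control library, 0 members were called in edgeR, while 1 was higher and 3 lower at an unadjusted p under 0.05. Leaving out each library gave 0 to 1 members higher and 0 to 3 lower, and 1 to 6 pathway genes higher and 0 to 6 lower, against 5 and 7 with all libraries. For clone 2 against control it gave 1 to 1 members higher (2 with all), and for clone 2 against clone 1 it gave 1 to 3 higher and 0 to 1 lower. Members higher in clone 2 against control numbered 1 without a filter and 1 with chromosomes centred. Pathway genes called lower numbered 4 with library size scaling and 4 with chromosomes centred. With the replicate number as a block, 3 pathway genes were higher and 4 lower, 1 member was higher in clone 2 against control, and over all genes 555 rose and 373 fell, against 748 and 535. Over all genes 158 rose and 88 fell without control replicate 1, 210 and 103 without control replicate 2, 1171 and 843 with clone 1 alone, and 1179 and 1094 with clone 2 alone. With chromosomes centred 335 rose and 444 fell. The replicate numbers only name the libraries: deviations of same-numbered libraries correlated at 0.0280, -0.0834 and 0.0260 between the 3 pairs of groups. No result named here turned its direction past the threshold. Id2 had 55 to 130 reads a library, and its interval ran from 0.589 to 1.16-fold. The cause of these changes in counts was not tested.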
